A study of Mus musculus with 6 samples.

Results

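The VEGF system of lung endothelial cells (ECs) was described through 10 mouse genes, comprising the ligands Vegfa, Vegfb, Vegfc, Vegfd and Pgf, the receptors Flt1, Kdr and Flt4, and the co-receptors Nrp1 and Nrp2. All probe sets whose platform annotation gave 1 of these names as the only gene symbol were taken, whatever their values, with Vegfd listed under its older symbol Figf. This gave 25 of the 45101 probe sets on the arrays and 10 of the 18194 genes with a single-symbol probe set. All 25 had a mean above the background level, a log2 expression of 7.48 set from olfactory receptor probe sets.

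The arrays held total RNA of ECs sorted from lungs of female NSG mice, an immunodeficient strain without T, B and NK cells, that were 6 to 8 weeks old. In the shTNC group, the mice had received MDA-MB-231-LM2 cells that expressed an shRNA for TNC. In the shControl group, the cells expressed a control shRNA. MDA-MB-231-LM2 is a strongly metastatic derivative of a human breast cancer cell line, and TNC encodes the matrix protein tenascin C. Cancer cells were injected into the blood, and lungs were taken at 3 weeks by the labels and on day 20 by the methods. There were 3 arrays in each group, labelled as biological replicates. The number of mice per array and the hairpin used for shTNC are not given in the sources used here. CD31-positive cells were sorted after cells with CD45, CD11b, EpCAM, CD140a/b or GFP had been removed. Human TNC was targeted, in cells that were removed by the sort, so the arrays hold no check of the knockdown. The comparison asks how lung ECs differ when the cancer cells in the lung are depleted of TNC. The paper reports that TNC knockdown reduced lung colonization by these cells. An effect of TNC on the ECs and an effect of metastatic burden therefore cannot be told apart in these arrays.

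The VEGF ligands are secreted growth factors of blood and lymph vessels. VEGF-A binds FLT1 and KDR (VEGFR1 and VEGFR2), VEGF-B and placental growth factor bind FLT1, and VEGF-C binds FLT4 (VEGFR3) and, once processed, KDR. VEGF-D of the mouse binds FLT4, and its binding to KDR is known of the human protein. KDR carries most of the growth and permeability signal in blood vessels, whereas FLT1 binds VEGF-A tightly, signals weakly and also exists as a soluble form that traps the ligand. The neuropilins NRP1 and NRP2 hold VEGF next to its receptors and are also receptors for class 3 semaphorins. In healthy lung, alveolar epithelium is a main source of VEGF-A and the dense capillary bed carries KDR and FLT1.

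On the first principal component of all probe sets, which held 36.6% of the variance, shControl 2 lay apart at 43.6, with the 3 shTNC arrays between -21.1 and -16.1 and the other two shControl arrays at 11.1 and -0.251. The log2 difference between 3′ and 5′ probe sets of Actb, a sign of RNA integrity, was 0.197 to 0.274 in shTNC and 0.276 to 0.291 in shControl, without overlap (exact two-sided permutation test, p = 0.1). For Gapdh it overlapped (exact two-sided permutation test, p = 0.8). The part of RNA integrity in the differences below was not tested.

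By limma, 0 of the 25 VEGF ligand and receptor probe sets reached an adjusted p under 0.05, a level that called 0% of all probe sets on these arrays. The looser thresholds of the study, which combine an unadjusted p of 0.05 with a false discovery rate of 0.25 and a log2 change of 0.75 up or down, were met by 0 of 25, against 0.182% of all probe sets. At an unadjusted p under 0.05, 5 of the 25 probe sets were higher in shTNC, 1 each of Vegfc, Nrp2, Flt1, Vegfa and Nrp1, against 6.66% of all probe sets. The Pgf probe set was the only 1 of 25 lower in shTNC at that level, against 6.3% of all. The 6 differences lay between -0.51 and 0.47 on the log2 scale, which corresponds to folds between 0.702 and 1.38. The lowest adjusted p among the 25 was 0.255.

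The 250 bases before the RefSeq start of the genes are shown for the genes with a higher or lower probe set, to give their regulatory context, together with Kdr as the counterpart of Flt1. All 10 genes had an entry in the RefSeq promoter table (GRCm38.p6), with 12 entries in all. Where the window lay within the annotated extent of the gene, which was the case for 6 entries, at most 30 bases of it are printed. Capitals mark matches to the core motif of the ETS transcription factors, which is GGAA. They also mark the cAMP response element, with the letters TGACGTCA, and the GC box, with the letters GGGCGG. A match on the other strand appears as the reverse complement of these letters. The core of the hypoxia response element, spelled ACGTG, was searched as well on both strands. Matches of different motifs did not overlap in these 12 windows, and GC boxes may overlap one another. Lines run 5′ to 3′ on the strand of the gene.
Vegfa, chr17:46032378-46032627, minus strand: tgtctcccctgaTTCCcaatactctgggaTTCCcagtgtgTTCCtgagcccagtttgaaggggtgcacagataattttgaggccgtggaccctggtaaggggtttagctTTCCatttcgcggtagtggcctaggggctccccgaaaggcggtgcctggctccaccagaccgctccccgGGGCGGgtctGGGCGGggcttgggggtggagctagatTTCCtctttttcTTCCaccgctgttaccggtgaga
Vegfc, chr8:54077282-54077531, plus strand: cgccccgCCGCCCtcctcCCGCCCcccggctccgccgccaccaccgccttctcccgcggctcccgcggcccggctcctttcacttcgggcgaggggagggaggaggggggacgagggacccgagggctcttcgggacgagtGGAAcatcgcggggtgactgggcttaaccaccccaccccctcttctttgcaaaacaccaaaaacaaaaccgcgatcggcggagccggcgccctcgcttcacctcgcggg
Nrp2, chr1:62703067-62703316, plus strand: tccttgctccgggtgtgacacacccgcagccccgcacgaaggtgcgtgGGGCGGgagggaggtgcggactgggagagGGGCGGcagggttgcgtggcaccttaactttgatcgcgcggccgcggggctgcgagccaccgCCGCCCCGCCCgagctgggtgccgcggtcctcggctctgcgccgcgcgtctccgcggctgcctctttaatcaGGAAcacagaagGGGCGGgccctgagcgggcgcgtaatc
Flt1, chr5:147726070-147726099, minus strand: gacccctTGACGTCActGGAAggaggtgcc
Kdr, chr5:75978556-75978585, minus strand: cgtgGGAAaccgGGAAacccaaacctggta
Nrp1, chr8:128358970-128358999, plus strand: ggaggGGGCGGgaGGAAgggagGGAAgggc
Pgf, chr12:85177337-85177366, minus strand: agtGGGCGGgcaggctgcagccCCGCCCca

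GGAA was found in 93.4% of 32851 promoter windows of this length, GGGCGG in 32.7%, ACGTG in 16.6% and TGACGTCA in 1.55%. The first Vegfa window had 6 matches to GGAA, the most of the 12. In their full windows, Flt1, Kdr and Nrp1 had 4 matches each, and Vegfc and Nrp2 had 1 each. The Flt1 window was the only 1 of the 12 with TGACGTCA, which began 81 bases before the start and was followed by a GGAA that began 71 bases before it. Nrp2 had 5 GC boxes, the most of the 12 windows. The first Pgf window had 2 GC boxes and no GGAA. ACGTG was found in 1 of the 12 windows, the second Vegfa entry. These matches are a description of the letters.

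Vegfa, the main growth factor for blood vessels, was measured by 2 probe sets that differed in direction. Probe set 1420909_at had values of 12.01, 11.98 and 11.98 in shTNC, against 11.80, 11.36 and 11.80 in shControl, on the log2 scale. All shTNC arrays lay above all shControl arrays, and shControl 2 was the lowest. The log2 difference was 0.33 (95% CI 0.04 to 0.63, unadjusted p = 0.0305, adjusted p = 0.338). Without shControl 2 the difference was 0.19, and the call was lost on leaving out 4 of the 6 arrays in turn. The brighter probe set 1451959_a_at read 13.25, 13.10 and 13.07 in shTNC and 13.12, 13.10 and 13.27 in shControl, with overlapping groups and a log2 difference of -0.03 (95% CI -0.24 to 0.19). The mean of both probe sets differed by 0.15 (95% CI -0.06 to 0.37).

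Vegfc, a growth factor of lymphatic vessels and sprouting blood vessels, was higher in shTNC on 1 of its 3 probe sets. Probe set 1440739_at had values of 10.54, 11.00 and 10.74 in shTNC, against 10.39, 10.19 and 10.30 in shControl. The lowest shTNC array lay above the highest shControl array. The log2 difference of 0.47 (95% CI 0.17 to 0.76), a fold of 1.38, had the smallest p of the 25 probe sets (unadjusted p = 0.00628, adjusted p = 0.255). Probe set 1439766_x_at, of a type that may also bind similar transcripts, read 10.91, 11.11 and 10.96 in shTNC and 10.84, 10.47 and 10.91 in shControl (log2 difference 0.25, unadjusted p = 0.0884, adjusted p = 0.454), and its groups overlapped at the level of shTNC 1 and shControl 3. The brightest probe set, 1419417_at, read 11.62, 11.92 and 11.70 in shTNC and 11.78, 11.59 and 11.66 in shControl, a log2 difference of 0.07 (95% CI -0.17 to 0.31). The mean of all 3 probe sets lay higher on each shTNC array, at 11.02, 11.34 and 11.14, than on any shControl array, at 11.00, 10.75 and 10.96. That mean differed by 0.26 on the log2 scale (95% CI 0.02 to 0.51, unadjusted p = 0.0384, adjusted p = 0.359).

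Vegfd, which like Vegfc acts on the lymphatic receptor, was measured closer to the background level of 7.48, and none of its 3 probe sets passed the test. Its probe set 1438953_at read 8.10, 8.01 and 8.59 in shTNC and 8.09, 7.81 and 7.66 in shControl, a log2 difference of 0.38 (95% CI -0.02 to 0.78, unadjusted p = 0.0594, adjusted p = 0.404). Probe set 1438954_x_at read 7.99, 8.12 and 8.73 in shTNC and 8.30, 7.75 and 7.84 in shControl (log2 difference 0.32). Both had their highest value on shTNC 3. The last Vegfd probe set, 1449528_at, read 7.52, 8.00 and 7.95 in shTNC and 8.17, 7.52 and 7.53 in shControl, with shControl 1 highest. Vegfb, a ligand of FLT1 linked to metabolism in muscle and fat, was measured by 1451803_a_at, which read 9.34, 9.51 and 9.51 in shTNC and 9.48, 9.69 and 9.17 in shControl, a log2 difference of 0.01 (95% CI -0.31 to 0.32).

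Pgf, the FLT1 ligand placental growth factor, had the largest difference of the 25 probe sets and was lower in shTNC. Its probe set 1418471_at read 9.29, 9.29 and 9.13 in shTNC, against 10.08, 9.90 and 9.25 in shControl. The shTNC arrays lay close together, and shControl 3 fell within their range, so the groups overlapped. The log2 difference was -0.51 (95% CI -0.96 to -0.06, unadjusted p = 0.0306, adjusted p = 0.338), a fold of 0.702. Without shControl 3 the log2 difference was -0.76, with an unadjusted p of 2.1e-04, and Pgf then passed the study's thresholds. Leaving out any of the other 5 arrays ended the call, and the difference without shControl 1 was -0.34.

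**Figure D1:**
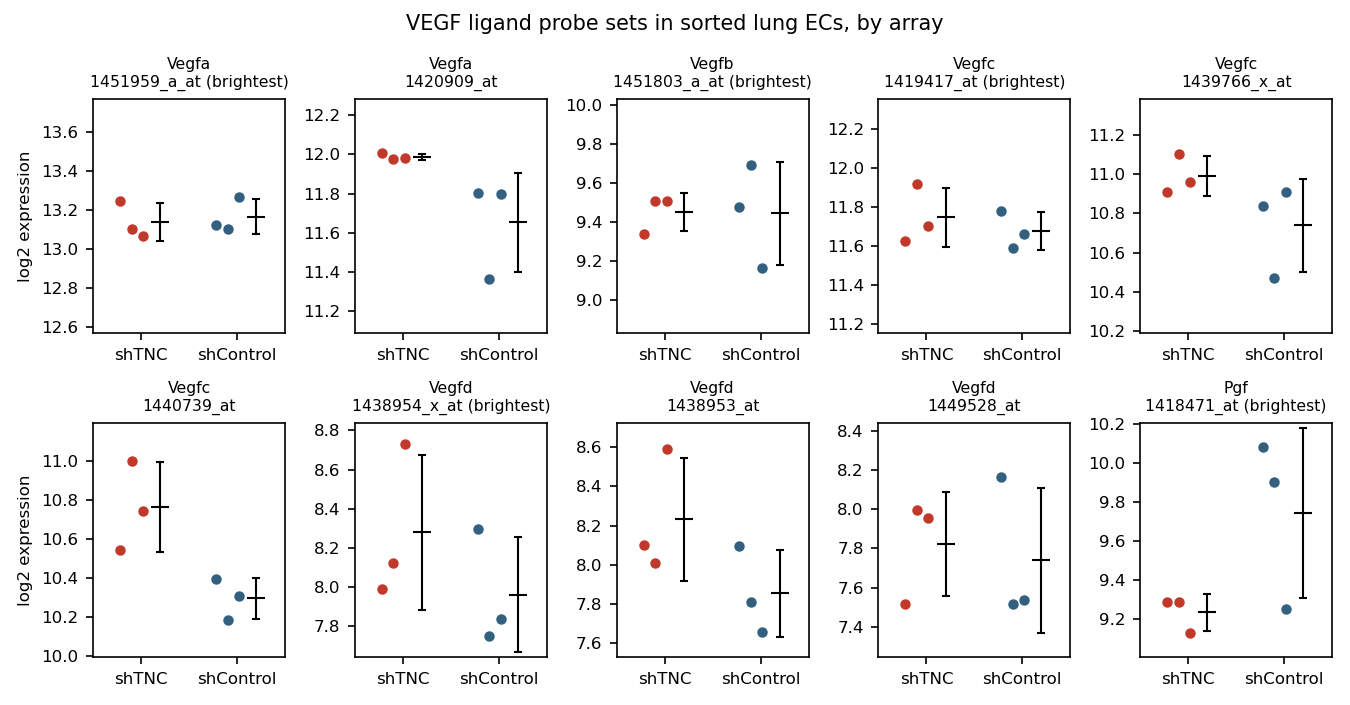
Log2 expression of the 10 ligand probe sets (y axis, with the same span in each panel) in 3 shTNC and 3 shControl arrays, with arrays 1 to 3 from left to right as points and the group mean ± SD as a black bar. The 3 shTNC points lie above the 3 shControl points for Vegfa 1420909_at and Vegfc 1440739_at, and shControl 3 lies among the shTNC points for Pgf.

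Flt1, the receptor that traps VEGF-A, had positive differences on each of its 4 probe sets, between 0.09 and 0.34 on the log2 scale, and passed an unadjusted p of 0.05 on 1. Probe set 1419300_at had values of 12.79, 13.00 and 12.94 in shTNC, against 12.68, 12.57 and 12.47 in shControl, and the groups did not overlap. The log2 difference was 0.34 (95% CI 0.11 to 0.57, unadjusted p = 0.00919, adjusted p = 0.269), a fold of 1.26. The calls of this probe set, Vegfc 1440739_at, Nrp1 1448943_at and Nrp2 1447343_at were kept under each of the 12 alternatives run for single probe sets. The groups did not overlap either for 1440926_at, with 12.60, 12.63 and 12.53 in shTNC and 12.45, 12.50 and 12.42 in shControl (log2 difference 0.13). The brightest probe set, 1454037_a_at, read 13.40, 13.40 and 13.36 in shTNC and 13.29, 13.28 and 13.32 in shControl, again with no overlap, and its log2 difference of 0.09 had a 95% CI of -0.09 to 0.27. Probe set 1451756_at read 12.52, 12.54 and 12.34 in shTNC and 12.30, 12.29 and 12.40 in shControl, where shTNC 3 fell below shControl 3. The mean of the 4 probe sets was 12.83, 12.89 and 12.79 in shTNC and 12.68, 12.66 and 12.65 in shControl. It differed by 0.17 (95% CI 0.02 to 0.33, unadjusted p = 0.0353, adjusted p = 0.351). The 4 probe sets measure 1 gene in the same RNA and are not independent.

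Kdr, the main signalling receptor of blood vessel ECs, read 13.73, 13.75 and 13.83 in shTNC and 13.66, 13.78 and 13.64 in shControl on its probe set, 1449379_at. The groups overlapped, and the log2 difference was 0.08 (95% CI -0.12 to 0.28, unadjusted p = 0.385, adjusted p = 0.729). Flt4, the receptor of VEGF-C and VEGF-D, had small negative differences on both probe sets, and neither passed the test. Probe set 1421442_at read 12.76, 12.75 and 12.70 in shTNC and 12.80, 12.85 and 12.65 in shControl (log2 difference -0.03, 95% CI -0.23 to 0.18). Probe set 1444052_at read 11.12, 11.07 and 10.94 in shTNC and 11.16, 11.27 and 11.00 in shControl (log2 difference -0.10, 95% CI -0.33 to 0.14).

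The level of Flt1 relative to Kdr was compared per array, since these receptors share VEGF-A. With the brightest probe sets, Flt1 minus Kdr was -0.33, -0.36 and -0.47 in shTNC and -0.37, -0.50 and -0.32 in shControl on the log2 scale. The groups overlapped fully, with a difference of 0.01 (exact two-sided permutation test, p = 0.9). With the mean of the 4 Flt1 probe sets, the values were -0.90, -0.86 and -1.04 in shTNC and -0.98, -1.12 and -0.99 in shControl, a difference of 0.09 (exact two-sided permutation test, p = 0.3). The smallest p that this exact test allows with 3 arrays in each group is 0.1. The value within an array depends on the probes, and only its difference between arrays was read.

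Nrp1, the co-receptor that joins VEGF-A to KDR, was higher in shTNC on 1 of its 4 probe sets. Probe set 1448943_at had values of 12.78, 12.80 and 12.78 in shTNC, against 12.57, 12.44 and 12.48 in shControl. The shTNC arrays lay close together and above all shControl arrays. The log2 difference was 0.29 (95% CI 0.10 to 0.48, unadjusted p = 0.00744, adjusted p = 0.263), a fold of 1.22. Probe set 1448944_at ran the same way without overlap, with 13.47, 13.50 and 13.45 in shTNC and 13.38, 13.30 and 13.37 in shControl (log2 difference 0.12). The brightest probe set, 1418084_at, did not, with 13.66, 13.64 and 13.64 in shTNC and 13.74, 13.64 and 13.71 in shControl (log2 difference -0.05, 95% CI -0.24 to 0.13). These 3 probe sets carry the same source transcript in the annotation, and they differed in direction. Probe set 1457198_at was variable, with 9.57, 9.35 and 8.93 in shTNC and 8.77, 9.47 and 9.06 in shControl. The mean of the 4 differed by 0.14 (95% CI -0.04 to 0.31).

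Nrp2, the co-receptor for VEGF-C on lymphatic and venous ECs, was higher in shTNC on 1 of its 4 probe sets. Probe set 1447343_at had values of 8.38, 8.32 and 8.46 in shTNC, against 8.22, 7.79 and 7.90 in shControl. The groups did not overlap, and the shControl mean of 7.97 lay not far above the background level of 7.48. The log2 difference was 0.42 (95% CI 0.14 to 0.70, unadjusted p = 0.00889, adjusted p = 0.267), a fold of 1.33. On the brightest, 1435349_at, values were 11.84, 11.93 and 11.94 in shTNC and 11.98, 11.69 and 11.77 in shControl, a log2 difference of 0.09 (95% CI -0.14 to 0.32). Probe set 1456778_at read 9.96, 9.93 and 9.84 in shTNC and 9.96, 9.84 and 9.78 in shControl, and 1426528_at read 11.27, 11.13 and 11.13 in shTNC and 11.47, 11.23 and 10.92 in shControl. Their log2 differences were 0.05 and -0.03, with overlapping groups.

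**Figure D2:**
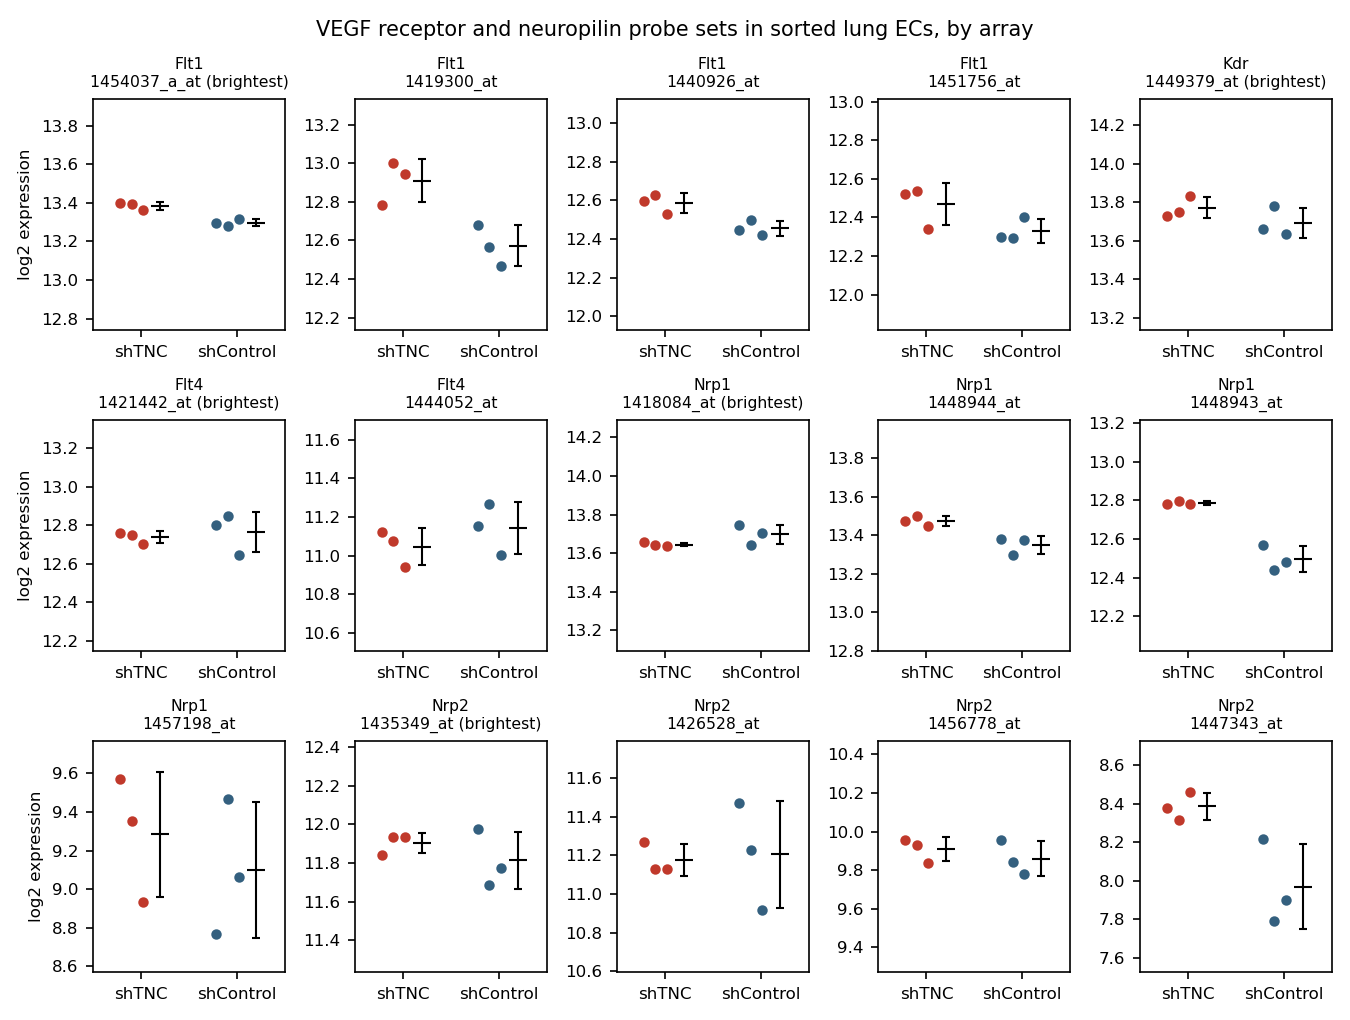
Log2 expression of the 7 receptor and 8 neuropilin probe sets (y axis, with the same span in each panel) in 3 shTNC and 3 shControl arrays, with arrays 1 to 3 from left to right as points and the group mean ± SD as a black bar. The groups do not overlap for 3 Flt1, 2 Nrp1 and 1 Nrp2 probe sets, and they overlap for Kdr and Flt4.

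Across the members, 19 of 25 probe sets had positive differences and 6 had negative ones. In 8 of 25 all shTNC arrays lay above all shControl arrays, against 8.92% of all probe sets, and the reverse held for 0 of 25, against 10.5% of all probe sets. The median difference of the 25 was 0.09, against -0.01 over all probe sets. By group, 8 of 10 ligand, 5 of 7 receptor and 6 of 8 neuropilin probe sets had positive differences. The picture depended on the probe set that stands for a gene. With the brightest probe set of each gene, 6 of 10 genes had positive differences, with a median of 0.04, against -0.03 over all genes. None of the 10 was then higher at an unadjusted p under 0.05, against 4.54% of all genes, and 1, Pgf, was lower, against 7.12% of all genes. All shTNC arrays lay above all shControl arrays for 1 of the 10 genes, against 1339 of the 18194 genes. The reverse held for 0 of the 10, against 2259 of the 18194. None of the 5 probe sets called higher was the brightest of its gene. With the mean of the probe sets of each gene, the median was 0.13, and Vegfa and Nrp1 had positive differences in place of negative ones. The median over all genes was not taken by this measure, so the 0.13 has no value to stand against.

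**Figure D3:**
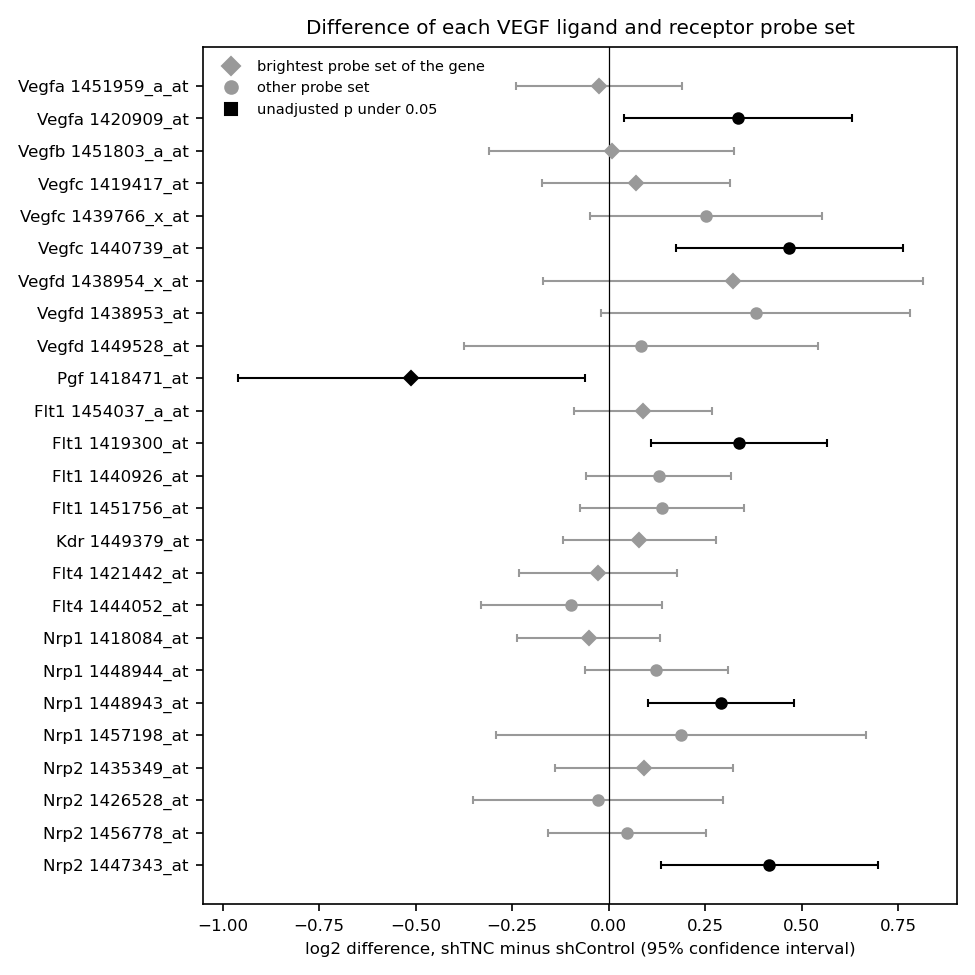
Log2 difference, shTNC minus shControl (x axis), with limma's 95% confidence interval for each of the 25 probe sets (rows), where diamonds mark the brightest probe set of a gene and black marks an unadjusted p under 0.05. The 5 black symbols to the right of 0 are circles, and the black diamond to the left is Pgf at -0.51.

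Few genes that carry the VEGF signal inside the cell passed the test, and none of those named from here on passed an adjusted p of 0.05. Each gene is given at its brightest probe set unless another is named, and the counts stand against the 4.54% of all genes that were higher and the 7.12% that were lower at an unadjusted p under 0.05. Of 37 receptor signal transducers measured, 1 was higher and 0 were lower at p under 0.05 before adjustment, with a median difference of -0.03, against -0.03 over all genes. Without shControl 3, 6 of them passed in either direction, and without shTNC 2, shTNC 3 or shControl 2, 0 passed. The higher gene was Yes1, a Src family kinase, with 11.11, 11.29 and 11.29 in shTNC, against 11.11, 10.93 and 10.66 in shControl (log2 difference 0.33, adjusted p = 0.336), and the call was kept in 2 of the 6 fits that left out 1 array. The dimmer Yes1 probe sets differed from each other. Probe sets 1418470_at and 1456843_at differed by 0.03 and 0.06 with overlapping groups, whereas 1458878_at differed by 0.69 without overlap. Hspb1, a small heat shock protein phosphorylated after VEGF, read 12.80, 12.81 and 12.75 in shTNC and 12.87, 12.96 and 12.97 in shControl (log2 difference -0.15, unadjusted p = 0.111, adjusted p = 0.484). Hspb1 probe set 1425964_x_at, of similar level, differed by 0.02 with overlapping groups. Sh2d2a, which encodes the KDR adaptor TSAd, had a log2 difference of -0.22 (adjusted p = 0.478). Of 29 receptor partners, phosphatases and traffic genes, 2 were higher, 0 were lower and the median was 0.01. They were Cav1, the coat protein of caveolae, with a log2 difference of 0.20 (adjusted p = 0.348), and Ctnnd1, the junction protein p120 catenin, with 0.24 (adjusted p = 0.378). Ctnnd1 probe set 1437448_s_at, with a mean of 12.35 against 12.36 for the brightest, differed by -0.02 with overlapping groups. The dimmer 1445830_at differed by 0.26 without overlap. Cav1 read 13.45, 13.50 and 13.49 in shTNC, against 13.30, 13.27 and 13.26 in shControl, without overlap. In the 6 fits that left out 1 array, the calls of Cav1 and Ctnnd1 were kept in 0 and 2. Hspg2, the basement membrane protein perlecan, had a log2 difference of -0.25 (unadjusted p = 0.0502, adjusted p = 0.386).

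Of 9 genes that process VEGF-C, 0 passed an unadjusted p of 0.05 in either direction. The protease genes Plau, Adamts3 and Plg had log2 differences of 0.20, 0.26 and -0.07, and the last 2 were near background. Of 12 semaphorins and plexins that share the neuropilins, 2 were higher and 0 were lower. These 2, the semaphorin genes Sema3d and Sema3e, had log2 differences of 0.43 and 0.24, lay near background and kept their calls in 4 and 2 of the 6 fits that left out 1 array. Their dimmer probe sets did not all run the same way. Sema3d 1453148_at differed by 0.04. Sema3e 1425906_a_at was lower without overlap, by -0.16, and 1419717_at and 1442226_at differed by 0.01 and 0.26 with overlap. Plxna1, a plexin that pairs with NRP1, read 12.38, 12.16 and 12.21 in shTNC, against 11.97, 12.07 and 12.10 in shControl, with no overlap (log2 difference 0.20, unadjusted p = 0.0621, adjusted p = 0.409).

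Among 37 genes that VEGF induces in ECs, 5 were lower and 2 were higher in shTNC at an unadjusted p under 0.05, with a median of -0.03. Without shControl 3, 13 of the 37 passed in either direction. Spry4, a feedback inhibitor of receptor tyrosine kinase signalling, read 12.29, 12.39 and 12.51 in shTNC, against 13.00, 12.67 and 13.02 in shControl. The groups did not overlap, and the log2 difference was -0.50 (95% CI -0.78 to -0.23, adjusted p = 0.225). A further pair of Spry4 probe sets was lower as well, with -0.63 and -0.48, whereas 1445669_at differed by 0.11 with overlapping groups. Birc5, the survival and cell division gene survivin, read 9.59, 9.70 and 9.61 in shTNC, against 9.99, 11.00 and 10.34 in shControl (log2 difference -0.81, adjusted p = 0.255). Its highest value was on shControl 2, without which the difference was -0.54. Dusp4, a phosphatase of MAP kinases, read 10.63, 10.56 and 10.45 in shTNC, against 10.77, 11.16 and 10.93 in shControl (log2 difference -0.41, adjusted p = 0.264). The other 2 lower genes were Sele and Fscn1, and the 2 higher genes were Vcam1 and Ptgs2, all named after their values were seen. The calls of Spry4, Birc5, Dusp4 and Vcam1 were kept on leaving out each of the 6 arrays in turn, and those of Sele, Ptgs2 and Fscn1 were kept in 5, 5 and 3 of 6. Sele and Vcam1 encode adhesion molecules for leukocytes, and they differed by -0.55 and 0.31.

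Of 20 hypoxia sensors and genes of the VHL axis, which sets Vegfa and Flt1 transcription when oxygen is low, 2 were lower, 0 were higher and the median was -0.01. Without shControl 3, 4 of the 20 passed in either direction, and without shTNC 1 or shTNC 3, 1 passed. Slc2a1, the glucose transporter GLUT1, read 10.65, 10.58 and 10.21 in shTNC, against 10.83, 11.00 and 10.94 in shControl, without overlap (log2 difference -0.44, adjusted p = 0.266). Its other probe sets were lower too, with -0.35 each, and the call was kept on leaving out each of the 6 arrays in turn. Adm, the vasodilator peptide adrenomedullin, read 10.71, 10.91 and 10.75 in shTNC, against 11.52, 11.69 and 10.81 in shControl (log2 difference -0.55, adjusted p = 0.335). As for Pgf, shControl 3 lay within the shTNC range, and the Adm call was kept in 2 of the 6 fits that left out 1 array. Hif3a differed by -0.18 (unadjusted p = 0.0782, adjusted p = 0.436).

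Of 24 transcription factors that act on the VEGF receptor genes in ECs, 2 were higher and 0 were lower, with a median of 0.04. Without shControl 3, 4 of the 24 passed in either direction, and 0 to 1 passed when any other array was left out. Sox17, a factor of arterial ECs, read 12.91, 12.95 and 13.08 in shTNC, against 12.71, 12.65 and 12.85 in shControl (log2 difference 0.24, adjusted p = 0.348). The dimmer Sox17 probe set 1421657_a_at differed by 0.10 with overlapping groups. Lmo2, a partner of GATA and TAL1 in blood vessels, read 13.04, 13.01 and 13.06 in shTNC, against 12.76, 12.80 and 12.93 in shControl (log2 difference 0.20, adjusted p = 0.377). The calls of Sox17 and Lmo2 at their brightest probe sets were kept in 2 and 1 of the 6 fits that left out 1 array. Sox7 had a log2 difference of 0.23, with shControl 3 within the shTNC range (unadjusted p = 0.0853, adjusted p = 0.450). The dimmer Sox7 probe set 1432495_at differed by -0.06 with overlapping groups.

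**Figure D4:**
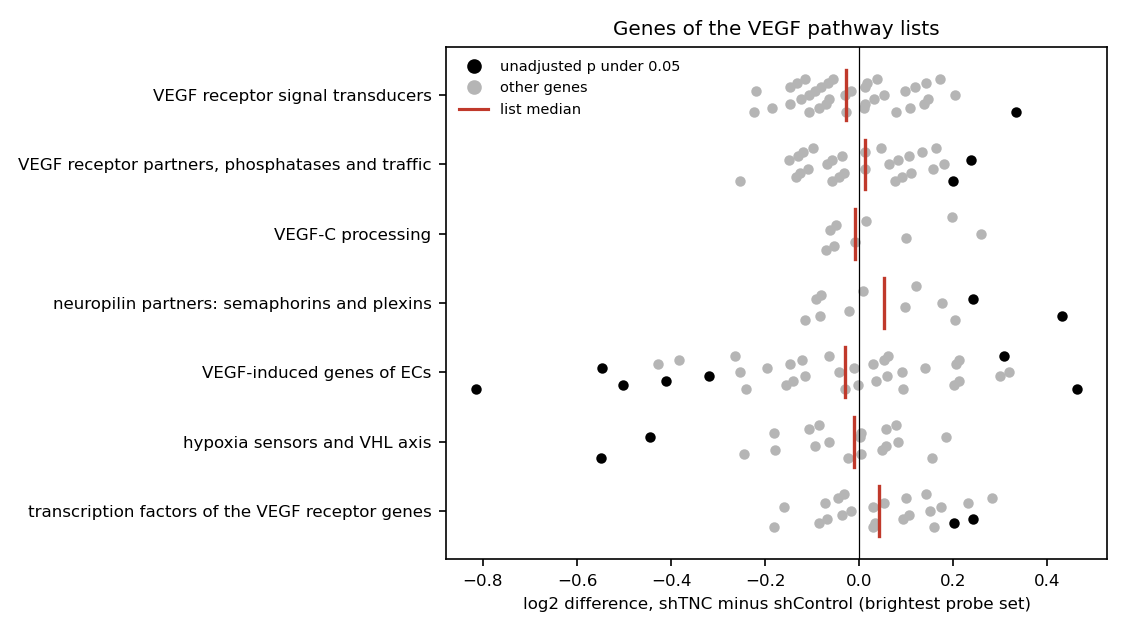
Log2 difference, shTNC minus shControl (x axis), of each gene of the 7 VEGF pathway lists (rows), with each gene at its brightest probe set, black points at an unadjusted p under 0.05 and a red line at the list median. The points scatter on both sides of 0 in each list, and the VEGF-induced genes reach -0.81 for Birc5.

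In RNA of a sorted population, fewer cells of a type and less RNA per cell cannot be told apart, and the levels of marker genes are given for this reason. Of 16 pan-endothelial markers, 0 passed an unadjusted p of 0.05, and their summed level, as log2, was 17.50 to 17.54 in shTNC and 17.51 to 17.56 in shControl. Pecam1, which encodes CD31, and Cdh5, the VE-cadherin gene, differed by -0.03 and -0.04. For the capillary ECs that carry Flt1 and Kdr, the summed level of 9 general capillary markers was 16.55 on each shTNC array and 16.46 to 16.47 in shControl, without overlap. Of these 9, Cxcl12 and, named after its values were seen, Hilpda were higher at p under 0.05 before adjustment, and 0 were lower. Aerocyte markers, of the capillary ECs that face the air spaces, overlapped at 16.04 to 16.12 in shTNC and 15.98 to 16.09 in shControl. The lymphatic list, relevant to Flt4, Nrp2 and Vegfc, summed to 14.20 to 14.29 in shTNC and 14.09 to 14.26 in shControl, with 1 of 8 higher, Fgl2, and 1 lower, Nts, a gene near background, both named after their values were seen. Lyve1 and Prox1, taken as defining genes of the list, differed by 0.10 and -0.18. Their mean levels were 13.60 and 9.32, so the sum mostly follows Lyve1 and says little about cells with Prox1. The 9 arterial markers, relevant to Nrp1 and Sox17, summed to 15.70 to 15.74 in shTNC and 15.59 to 15.69 in shControl, without overlap, with 6 of 9 differences positive and a median of 0.13. Sox17 and Gja4 were higher and Fbln5 was lower at p under 0.05 before adjustment, with log2 differences of 0.24, 0.33 and -0.40. The 7 venous markers, relevant to Nrp2, summed to 14.28 to 14.32 in shTNC and 14.20 to 14.37 in shControl, with overlap, and 2 were higher and 2 lower at the same level. Car8 read higher by 0.80 (adjusted p = 0.236), past the study's thresholds, and Vcam1 by 0.31, whereas Selp and Ackr1 differed by -0.28 and -0.38. The dimmer Car8 probe sets 1424958_at and 1457904_at differed by 0.15 and 0.13 with overlapping groups, and the latter was near background. Apart from Sox17, these called arterial and venous genes were named after their values were seen. The part of these EC types in the values of Flt1, Nrp1, Nrp2, Vegfc and Sox17 was not tested.

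Some markers of cells that the sort should have removed, and that are sources of VEGF ligands, were above background as well. All 9 alveolar type 1 markers had positive differences, 1 of them at an unadjusted p under 0.05, and their summed level was 14.96 to 15.10 in shTNC and 14.83 to 14.86 in shControl, without overlap. The marker past that level was Cav1, which ECs express too, and the defining gene Ager read 10.43, 10.19 and 11.01 in shTNC and 10.26, 10.52 and 10.28 in shControl, with overlap. The sum rests mostly on Clic5, Cav1 and Hopx, with mean levels of 13.41, 13.38 and 12.55, against 10.45 for Ager. The 12 other epithelial markers had 5 positive and 7 negative differences, with a median of -0.06. At an unadjusted p under 0.05, 0 of the 12 were higher and 1 was lower. Their sum was 12.85 to 14.43 in shTNC and 13.59 to 14.19 in shControl, with overlap. Among them, Sftpc, the surfactant gene of alveolar type 2 cells, was as low as 12.09 and as high as 13.46 in shTNC and lay between 12.95 and 13.41 in shControl. The values of Vegfa stand beside these, and the part of epithelial RNA in them was not tested. Fibroblast markers, of cells that make Vegfd and Vegfc, summed to 14.88, 15.03 and 15.25 in shTNC and 15.01, 14.90 and 14.61 in shControl, with overlap. Of the 13, 10 had positive differences, with a median of 0.28, against -0.03 over all genes, and 1 was higher at that level, Mfap4, which was named after its values were seen. The highest sum was on shTNC 3, which also had the highest Vegfd values on 2 of 3 probe sets, and the defining gene Col1a1 differed by -0.13. Pericyte and smooth muscle markers overlapped at 12.65 to 12.96 in shTNC and 12.60 to 12.67 in shControl. Of the 12, 7 had positive and 5 negative differences, between -0.20 and 0.50, with a median of 0.13. At an unadjusted p under 0.05, 3 were higher, Myh11, Cox4i2 and Trpc6, the last of them near background, and 0 were lower. The probe sets of Pdgfrb, a defining gene of pericytes, differed from each other. The brightest, 1417148_at, had a log2 difference of -0.01, whereas 1436970_a_at read 8.74, 8.48 and 8.81 in shTNC, against 8.25, 7.81 and 7.63 in shControl, without overlap. Its log2 difference was 0.78 (unadjusted p = 0.00141, adjusted p = 0.203), past the study's thresholds. The 6 mesothelial markers summed to 10.74 to 11.79 in shTNC and 10.49 to 10.72 in shControl, without overlap. All 6 had positive differences, with a median of 0.74, and 2 of the 6 were near background. Of the list, 1 was higher at an unadjusted p under 0.05, Gpm6a, with a log2 difference of 0.76 and overlapping groups (adjusted p = 0.283), and its call was kept in 6 of 6 fits that left out 1 array. It was named after its values were seen. Of 15 macrophage and monocyte markers, 5 had positive and 10 negative differences, with a median of -0.11. At an unadjusted p under 0.05, 3 were lower, Mrc1, Cd14 and, named after its values were seen, Chil3. When 1 array was left out, the differences of the defining genes Ptprc, Itgam and Csf1r were 0.12 to 0.59, -0.39 to -0.12 and -0.20 to -0.03. The sum was 13.04 to 13.53 in shTNC and 13.45 to 13.55 in shControl, with overlap. The part of these cells in the VEGF ligand values was not tested.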

How the data were processed

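Expression of sorted lung ECs was compared between 3 shTNC and 3 shControl samples on Affymetrix GeneChip Mouse Genome arrays, labelled from 2 ng of total RNA. The authors normalized the arrays by RMA in Chipster and deposited 1 log2 value per probe set and array; no raw intensities or detection calls were used. Aligners and genome builds do not apply to these arrays. Gene names came from the platform annotation, in which 34958 probe sets had 1 symbol, 932 several and 9211 none; Vegfd is listed there by its older symbol. The background level of 7.48 was taken from 44 probe sets of olfactory receptors, as their 95th percentile, and was exceeded by 67.2% of all probe sets.

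All 45101 probe sets were fitted without a filter by limma 3.58.1 under R 4.3.3, using lmFit, then eBayes, and two-sided p-values adjusted over all of them by the Benjamini-Hochberg method. Differences are shTNC minus shControl with limma's 95% confidence interval. For genes, the brightest single-symbol probe set was used. Flt1 minus Kdr was compared by an exact permutation test. The steps were tested on simulated data. Of 330 entries in 22 gene lists, 313 were matched and the rest were not analysed here. The members and lists were chosen with earlier results of these data known. Named genes were all members, the 3 genes of each pathway list with the smallest p, any list gene past an adjusted p of 0.05, defining markers, and markers without overlap at an unadjusted p under 0.05 for cell types that are sources of a member. Alternatives were quantile normalization, median centring, array weights, robust eBayes with an intensity trend, omission of probe sets near background, the replicate number as a block, leaving out each array, and the mean of a gene's probe sets. Leaving out arrays for list genes was added after the data were seen. Limma's p-values set the difference between groups against the spread of arrays within a group, moderated over all probe sets. The number of arrays limits the precision.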

Additional observations from a re-analysis of the deposited data

How the results depend on the processing

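Against 6 member probe sets past an unadjusted p of 0.05 in the reported fit, 6 passed with quantile normalization, median centring, array weights or probe sets near background left out, 8 with an intensity trend and robust eBayes, and 4 to 7 when 1 array was left out. The count of lower probe sets was 0 to 1 in those fits, and 0 to 1 passed the study's thresholds, which was Pgf without shControl 3. In their deviations from the group mean, same-numbered samples correlated at -0.0852, 0.0410 and 0.103. With 3 arrays in each group, these values cannot show whether the samples were paired. With the replicate block 6 probe sets passed.

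With the mean of a gene's probe sets in place of the brightest, the median of the 10 genes was 0.13, and the differences of Vegfa and Nrp1 turned to 0.15 and 0.14. With the brightest probe sets, leaving out 1 array gave medians of -0.01 to 0.07. Differences near 0 changed sign when 1 array was left out, with ranges of -0.0133 to 0.133 for Vegfc 1419417_at, -0.0869 to 0.0130 for Flt4 1421442_at, -0.173 to 0.105 for Nrp2 1426528_at, -0.0267 to 0.298 for Vegfd 1449528_at, -0.132 to 0.131 for Vegfb, -0.0800 to 0.0259 for Vegfa 1451959_a_at and -0.0429 to 0.0521 for Flt1 minus Kdr. Among the pathway lists, genes past an unadjusted p of 0.05 numbered 12 VEGF-induced genes with array weights, and 6 receptor partners and 5 transcription factors with an intensity trend and robust eBayes, and 0 semaphorins and plexins passed with probe sets near background left out. The cause was not tested. Precision is limited by the number of arrays and, for Vegfd and Nrp2 1447343_at, by a signal near the background level of 7.48.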
